A study of Mus musculus with 20 samples.

Results

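The genes described here are 10 factors that mouse embryonic stem cells (ESCs) express at high levels relative to most differentiated cells: Lin28a, Trim71, Dppa5a, Utf1, Dppa2, Dppa4, Dppa3, Sall4, Gdf3 and Tcl1. They were taken by name, not by their values, after Ensembl gene IDs had been matched to mouse symbols, and all 10 were found among the 37991 IDs counted. The study deleted Cnot3, a subunit of the CCR4-NOT complex, in conditional knockout ESCs labelled C57BL/6. KO cells received 0.1 μM 4-hydroxytamoxifen (4OHT) and WT cells received DMSO. Whole-cell RNA (total RNA) and RNA from polysomes were sequenced on day 3, and in a separate experiment 10 μg/ml actinomycin D, which blocks transcription, was added on day 2 and RNA was taken at 0, 4 and 8 h. There were thus 10 groups of 2 biological replicates, 20 libraries in all. Every KO library and the WT libraries of the actinomycin D series carry the source label Cnot3 cKO ESCs, whereas the 4 WT libraries of day 3 carry the source label E14Tg2a, an ESC line of another strain background. On day 3 the deletion and the cell line therefore cannot be told apart from the labels. The promoter that drives the recombinase, and whether the conditional line is 1 clone, are not given in the sources used here.

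CCR4-NOT is the main complex that shortens the poly(A) tails of cytoplasmic mRNAs, a step that usually precedes decay of the message, and CNOT3 belongs to its regulatory core. LIN28A and TRIM71 are RNA-binding proteins linked to the let-7 microRNAs, which accumulate as stem cells differentiate: LIN28A blocks let-7 maturation, and both mRNAs are classical let-7 targets. The DPPA proteins take their name from developmental pluripotency association, but they are not 1 family: DPPA2 and DPPA4 bind chromatin as a pair, DPPA3 protects DNA methylation marks in the early embryo, and DPPA5A is an RNA-binding protein. UTF1 is a chromatin-associated factor and SALL4 a zinc finger transcription factor, while GDF3 is a secreted ligand of the TGF-β superfamily and TCL1 a cofactor of the kinase AKT.

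Sites that can bring CCR4-NOT to an mRNA were looked for in the 3′ UTR of 1 coding transcript per gene (GENCODE M21, GRCm38). The search covered 4 motifs on the mRNA strand: CTACCTC, which pairs with the let-7 seed, AGCACTT, which pairs with the seed of the ESC microRNA miR-294, TGTANATA, which Pumilio proteins bind, and the AU-rich TATTTAT. The microRNAs are shown first, from RefSeq (GRCm38.p6), with the seed, bases 2 to 8, in capitals.
mmu-let-7a-5p: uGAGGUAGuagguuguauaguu
mmu-miR-294-3p: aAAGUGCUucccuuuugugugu
The seed of let-7a had 8 matches in 4 of the 10 members. They are shown because they mark which members carry the canonical let-7 site, each as 30 bases of the mRNA strand with the match in capitals.
Lin28a, chr4:134005178-134005207, minus strand: agcctgttgaaCTACCTCatttttgccgat
Lin28a, chr4:134004540-134004569, minus strand: tcgccacaaacCTACCTCactgtgttgaaa
Trim71, chr9:114512461-114512490, minus strand: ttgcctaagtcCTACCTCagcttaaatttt
Trim71, chr9:114512365-114512394, minus strand: ataatttctatCTACCTCaactctttgcat
Trim71, chr9:114509036-114509065, minus strand: gtatggattttCTACCTCaattttggcaaa
Trim71, chr9:114509010-114509039, minus strand: caaaaagttgtCTACCTCacgtcggcaccg
Gdf3, chr6:122606016-122606045, minus strand: ttctctttcctCTACCTCctgtgtgctggg
Sall4, chr2:168748929-168748958, minus strand: ctttaatttatCTACCTCaattatctttat
The same 7 letters occurred in 9.33% of 13915 UTRs, and in 32.0% of UTRs of similar length for Trim71, 15.4% for Lin28a, 12.5% for Sall4 and 6.68% for Gdf3. Of all UTRs 23.4% hold a Pumilio match, and of UTRs of similar length 42.3% for Lin28a and 7.58% for Dppa3. Lin28a and Dppa3 each had 1 Pumilio match, which are shown in the same way.
Lin28a, chr4:134004352-134004381, minus strand: tggcctagttgTGTAAATAtaaatgtgttg
Dppa3, chr6:122630117-122630146, plus strand: aacctttaaatTGTAGATAggatgcacaac
Trim71 also had 1 miR-294 match and 1 AU-rich match, motifs found in 15.1% and 26.5% of all UTRs. Among UTRs of similar length to that of Trim71 the shares were 53.3% and 66.0%. Utf1, Dppa2, Dppa4, Dppa5a and Tcl1 had none of the 4 motifs in this window. The UTRs differed greatly in length: the Utf1 UTR had 122 bases (percentile 6.28 of the 13915), that of Dppa5a 184 bases and that of Trim71 5512 bases (percentile 97.7). A match is a string of letters and not a measured site, and the levels of the microRNAs were not analysed here.

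The libraries held 27664391 to 35170012 gene counts for total RNA, 13832829 to 16688555 for polysome RNA and 14513891 to 33262905 in the actinomycin D series, and the members had 126 (Tcl1) to 53502 (Dppa5a) counts in a library. Cnot3 itself was at 7.33 and 8.12 CPM in the KO total libraries, against 46.2 and 47.1 CPM in WT. Its log2 change was -3.21 at 0 h, -2.59 in total RNA and -2.45 in polysomes, in the direction the labels give in each experiment. ESC identity markers were present in all libraries (summed level 2494 to 2603 CPM in KO total RNA, 4124 to 4161 CPM in WT). Markers of trophectoderm, the outer lineage of the blastocyst, were summed at 772 to 783 CPM in KO total RNA and 213 to 228 CPM in WT, and 14 of 17 were called higher. At 0 h their sum was 511 to 515 CPM in KO and 285 to 297 CPM in WT. Feeder fibroblast markers were summed at 376 to 391 CPM in KO total RNA and 263 to 285 CPM in WT. Of 9 tested there 6 were called higher and 0 lower, and of 7 tested at 0 h 4 higher and 0 lower. Of all genes 16% and 29.8% were called higher in these sets. Dcn and Lum were at 0 in both arms at 0 h, while all 11 markers had counts in both arms of total RNA. The part of these other cell types in the values of the members was not tested, and in bulk RNA fewer cells of a type and less RNA per cell cannot be told apart. WT polysome replicate 2 stood apart from the other polysome libraries, with 5.02% of its counts in mitochondrially encoded mRNAs (0.912% to 1.38% in the others), so polysome values below are also given without it where a call depends on it.

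Levels are CPM (counts scaled to the library's size, after TMM scaling), which measure an mRNA relative to the bulk of mRNAs in its library, and not per cell. A gene was called when its Benjamini-Hochberg adjusted p in edgeR's quasi-likelihood test was under 0.05 over all genes tested. In total RNA of day 3, 8 of the 10 members were called lower in KO and 0 higher, where 12.2% of 18303 genes were called lower and 16% higher. Their median log2 change was -0.86, against 0.01 over all genes. Without 1 library each, every member kept its direction in total RNA, with Lin28a at -1.59 to -1.54, Sall4 at -0.60 to -0.53 and Utf1 at 0.04 to 0.16. Such a fit leaves 1 library in a group. When that library was a total RNA one, fewer members were called, and so was a smaller share of all genes. At 0 h on day 2, before the block took effect, 9 members were called lower and 1, Utf1, higher (32.9% of 15823 genes were called lower and 29.8% higher), with a median of -0.66 against -0.01. In polysomes 6 members were called lower and 0 higher (21.1% of genes lower, 15.9% higher), with a median of -0.96 against -0.08. Scaled instead to mitochondrially encoded mRNAs, the median of all genes at 0 h became 0.47, and Dppa4 (0.22) and Sall4 (0.08) turned positive. Of the members Utf1 (0.67) and Lin28a (-0.88) alone were then called (41% of genes). The mitochondrial share of counts at 0 h differed between the KO libraries (0.623% and 0.923%) more than between those of WT (0.949% and 0.934%). Every KO library lay below both WT libraries for 9 members in total RNA, 9 at 0 h and 8 in polysomes. The share of all genes separated in this way was not counted, so these counts have no background to be read against.

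**Figure D1:**
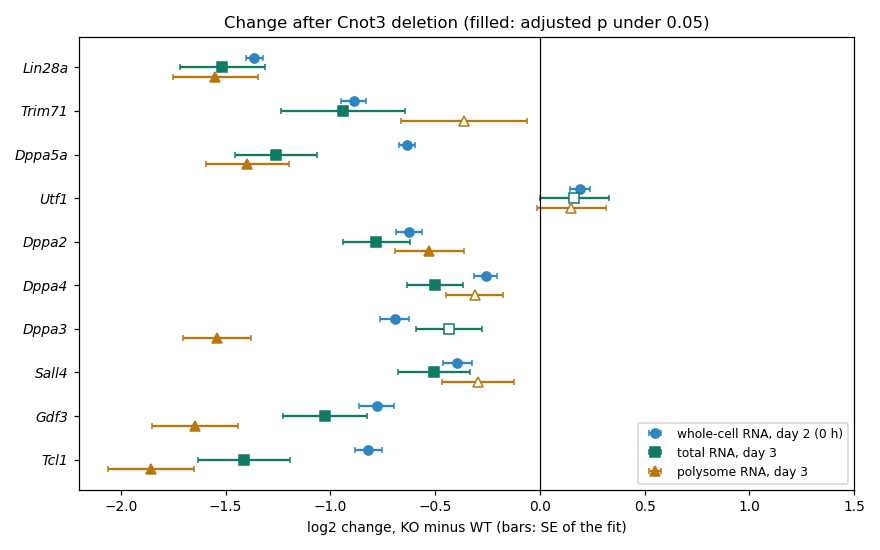
Log2 change, KO minus WT, of the 10 genes (rows) on day 2 (circles), in total RNA of day 3 (squares) and in polysome RNA of day 3 (triangles), each with the SE of the edgeR fit; filled symbols had an adjusted p under 0.05. Utf1 is the sole gene right of 0, and Lin28a lies near -1.5 in all 3.

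Lin28a (ENSMUSG00000050966, chr4:134003330-134018841, minus strand) had the largest change of the members in total RNA. It was at 194 and 192 CPM in KO total RNA, against 553 and 551 CPM in WT. KO was 0.349 times WT (log2 change -1.52 ± 0.20, SE of the fit, n = 2 each, adjusted p = 0.000677), and 0.754% of genes had a change as low or lower. The libraries of each arm lay within a few CPM of each other and far from the other arm. On day 2 the same picture held, with 145 and 157 CPM in KO and 387 and 389 CPM in WT (log2 change -1.36 ± 0.04, adjusted p = 3.82e-27). Polysomes held 155 and 135 CPM in KO and 513 and 336 CPM in WT, a log2 change of -1.55 ± 0.20 (adjusted p = 0.000374). The polysome change minus the total change was -0.03 ± 0.28, with a 95% interval of -0.58 to 0.52.

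Trim71 (ENSMUSG00000079259, chr9:114507133-114564369, minus strand) encodes a ubiquitin ligase family protein that binds and represses mRNAs through its NHL domain. KO total RNA held 236 and 254 CPM, against 474 and 467 CPM in WT. The log2 change was -0.94 ± 0.30 (adjusted p = 0.0369), a call that was lost when any 1 of the 4 total libraries was left out (-1.06 to -0.95, adjusted p = 0.101 to 0.148) or either KO polysome library, which shares the fit (adjusted p = 0.0679 and 0.068). On day 2 there were 71.4 and 81.4 CPM in KO and 145 and 138 CPM in WT (log2 change -0.89 ± 0.06, adjusted p = 2.78e-15). The SE was smaller than on day 3, where total RNA shares its fit with the polysome libraries. Polysomes gave no call: KO had 70.6 and 70.0 CPM, and WT had 127 and 53.7 CPM, so the WT libraries lay on both sides of KO. Without WT polysome replicate 1 the log2 change was 0.38 (adjusted p = 0.00708), and without replicate 2 it was -0.85 (adjusted p = 3.7e-05), so no direction in polysomes can be given.

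Dppa5a (ENSMUSG00000060461, chr9:78367052-78368177, minus strand), a KH-domain RNA-binding protein, had the highest level per kilobase of exon of the members in every group. Total RNA held 748 and 666 CPM in KO, against 1879 and 1510.5 CPM in WT, a log2 change of -1.26 ± 0.20 (adjusted p = 0.00147). Polysomes held 661 and 531 CPM in KO and 1598 and 1538 CPM in WT (log2 change -1.40 ± 0.20, adjusted p = 0.00053). The smaller gap was on day 2, with 464 and 431 CPM in KO and 688 and 703 CPM in WT (log2 change -0.64 ± 0.04, adjusted p = 9.52e-18). KO and WT libraries did not overlap in any of these. Day 3 minus day 2 gave -0.59 ± 0.17 for the Dppa5a change, which missed the threshold (adjusted p = 0.147) but was called by DESeq2 (-0.64, adjusted p = 0.0261).

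**Figure D2:**
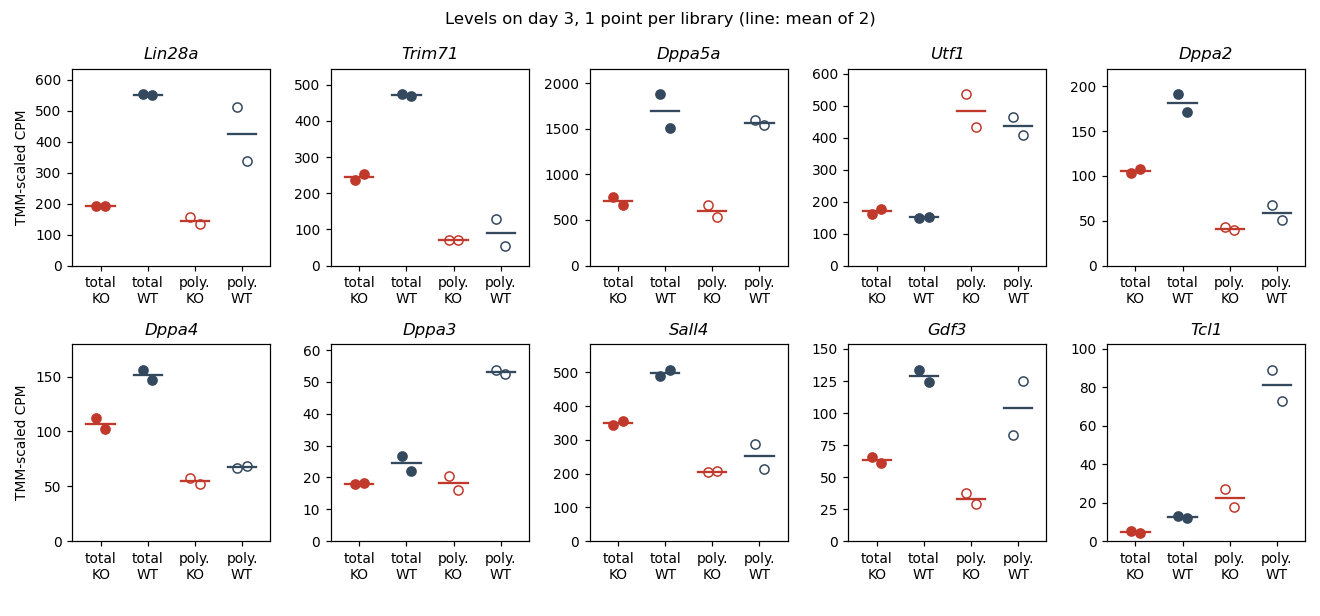
TMM-scaled CPM of each gene in the libraries of day 3 (1 point per library, filled for total RNA and open for polysome RNA; KO in red left of WT in dark blue; lines are means of 2). Both KO points lie below both WT points in total RNA for every gene but Utf1, and the WT polysome points of Trim71 straddle those of KO.

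Utf1 (ENSMUSG00000047751, chr7:139943789-139945112, plus strand) was the exception among the members, with no fall in any steady-state comparison. Total RNA held 162 and 176 CPM in KO, against 149 and 153 CPM in WT, and polysomes held 535 and 431 CPM in KO and 465 and 407 CPM in WT. The log2 changes were 0.16 ± 0.16 (adjusted p = 0.475) and 0.15 ± 0.16 (adjusted p = 0.505). In total RNA both KO values were a little above both WT values, and in polysomes the arms overlapped. At 0 h on day 2 there were 465 and 524 CPM in KO and 433 and 433 CPM in WT, a rise of 0.19 ± 0.05 (adjusted p = 0.00127). That call was lost with DESeq2 or its size factors (0.06 with either) and without 1 KO library (0.098, adjusted p = 0.0824). Its coding sequence had 65.5% GC (percentile 98.1).

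Dppa2 (ENSMUSG00000072419, chr16:48303908-48319723, plus strand) and Dppa4 (ENSMUSG00000058550, chr16:48283733-48294237, plus strand) lie 20.2 kb apart and encode SAP-domain proteins that bind each other. Dppa2 was at 103 and 108 CPM in KO total RNA, against 191 and 171 CPM in WT (log2 change -0.78 ± 0.16, adjusted p = 0.00592). Dppa4 was at 112 and 102 CPM in KO, against 156 and 147 CPM in WT (log2 change -0.50 ± 0.13, adjusted p = 0.0188). Both genes were thus lower, with no overlap between arms, but the Dppa4 call was lost without any 1 total library and the Dppa2 call without 2 of the 4. On day 2 the changes were -0.63 ± 0.06 for Dppa2 (37.2 and 43.0 CPM in KO, 63.5 and 60.2 CPM in WT) and -0.26 ± 0.06 for Dppa4 (42.9 and 46.9 CPM in KO, 53.9 and 53.5 CPM in WT). In polysomes Dppa2 had 42.5 and 39.2 CPM in KO and 67.6 and 50.3 CPM in WT, which was called (-0.53 ± 0.16, adjusted p = 0.0277). Dppa4 in polysomes had 57.7 and 51.7 CPM in KO and 66.9 and 68.9 CPM in WT and was not called (-0.31 ± 0.14, adjusted p = 0.0951). Morc1, a germline chromatin gene 127 kb from Dppa2, was lower as well (-0.99, adjusted p = 0.00257).

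DPPA2 and DPPA4 are known activators of the 2-cell-stage programme that Dux drives. Of 10 listed genes of that programme 8 were tested in total RNA, and all 8 were called higher in KO (16% of genes), with a median log2 change of 1.47, against 0.01 over all genes. Dppa2 and Dppa4 were lower in the same libraries. Zscan4c had a log2 change of 1.78 ± 0.15 and Zscan4f one of 1.66 ± 0.16. In polysomes 7 of 8 were called higher, as were 6 of 7 at 0 h, and none was lower in either. The Zscan4, Dux and Usp17l genes of the list belong to groups of near-identical copies, so the share of each copy is uncertain.

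Dppa3 (ENSMUSG00000046323, chr6:122626410-122630272, plus strand), the maternal factor also called Stella, was called in the polysomes of day 3 and not in total RNA, though the difference between the fractions was itself not called (adjusted p = 0.207). Total RNA held 17.8 and 18.3 CPM in KO, against 26.8 and 22.1 CPM in WT, and the log2 change of -0.44 ± 0.16 missed the threshold (adjusted p = 0.062). DESeq2 called it (-0.50, adjusted p = 0.0339). Polysomes held 20.4 and 16.2 CPM in KO, against 53.8 and 52.5 CPM in WT, where the log2 change was -1.54 ± 0.16 (adjusted p = 0.000115). The polysome arms did not overlap, and the WT libraries lay close together. On day 2 there were 16.2 and 16.7 CPM in KO and 26.9 and 26.4 CPM in WT (log2 change -0.69 ± 0.07, adjusted p = 2.77e-11).

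Of the 5 listed partners of DPPA3 in DNA methylation, 1 was called lower in total RNA, 3 in polysomes and all 5 at 0 h, and none was called higher. Over all genes 32.9% were called lower at 0 h, 12.2% in total RNA and 21.1% in polysomes. Dnmt3b, a de novo DNA methyltransferase, was the lowest in total RNA (-1.32 ± 0.17, adjusted p = 0.000562). Uhrf1, the methylation maintenance factor that DPPA3 restrains, had -0.40 ± 0.16 (adjusted p = 0.0785). The median of the list was -0.33 at 0 h, -0.40 in total RNA and -0.51 in polysomes, against -0.01, 0.01 and -0.08 over all genes.

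Sall4 (ENSMUSG00000027547, chr2:168748332-168767943, minus strand) was at 344 and 357 CPM in KO total RNA, against 488 and 507 CPM in WT. The log2 change of -0.51 ± 0.17 lay at the threshold (adjusted p = 0.0479), was not called when genes under 1 CPM were left out (-0.48, adjusted p = 0.0571), and was lost without any 1 total library or either KO polysome library. Day 2 gave 267 and 305 CPM in KO and 384 and 367 CPM in WT (log2 change -0.39 ± 0.07, adjusted p = 0.000224). Polysomes gave no call, with 204 and 207 CPM in KO and 289 and 215 CPM in WT (log2 change -0.29 ± 0.17, adjusted p = 0.201). Without WT polysome replicate 2 the polysome value was -0.49 and was called (adjusted p = 0.00125). SALL4 works with the NuRD deacetylase complex. Of 14 SALL and NuRD genes, 5 were called lower and 0 higher in total RNA, 4 lower and 1 higher in polysomes, and 9 lower and 2 higher at 0 h, with a median of -0.37 in total RNA, against 0.01 over all genes. The share of all genes called lower was 32.9% at 0 h, 12.2% in total RNA and 21.1% in polysomes. Sall1, its paralog, had -1.29 ± 0.14 in total RNA, and the NuRD subunit Mbd3 had -0.91 ± 0.16.

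Gdf3 (ENSMUSG00000030117, chr6:122605403-122610087, minus strand) lies 16.3 kb from Dppa3. Total RNA held 65.6 and 61.1 CPM in KO, against 134 and 124 CPM in WT (log2 change -1.03 ± 0.20, adjusted p = 0.00463). Polysomes held 37.9 and 28.7 CPM in KO, against 82.8 and 125 CPM in WT (log2 change -1.65 ± 0.21, adjusted p = 0.000285). Both arms were clear of each other, although the WT polysome libraries differed by more than the KO ones. On day 2 there were 51.2 and 56.9 CPM in KO and 92.3 and 93.1 CPM in WT (log2 change -0.78 ± 0.08, adjusted p = 5.1e-07). Apobec1, 7.6 kb from Gdf3 on its other side, went the other way at 0 h (0.27, adjusted p = 0.017).

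GDF3 acts through the receptors and coreceptors that NODAL uses. Of the 15 tested genes of that pathway, 5 were called lower in total RNA and 1 higher, and in polysomes 8 were lower and 1 higher, with medians of -0.21 in total RNA and -0.74 in polysomes (0.01 and -0.08 over all genes). Of all genes, 12.2% were lower and 16% higher in total RNA, and 21.1% and 15.9% in polysomes. The feedback inhibitors Lefty1 (-1.86 ± 0.37) and Lefty2 (-1.54 ± 0.29) and the SMAD corepressor Skil (-1.08 ± 0.20) fell in total RNA. The coreceptor Tdgf1 fell by 2.57 ± 0.30 on the log2 scale in polysomes. At 0 h 8 of 14 were lower and 3 higher. The members of the list that were called higher, named after their values were seen, were the coreceptor Cfc1 in total RNA (1.29, against -1.35 in polysomes, where it was called lower), Smad2 in polysomes, and Smad2, Smad3 and the ligand Nodal at 0 h.

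Tcl1 (ENSMUSG00000041359, chr12:105216750-105222793, minus strand) was the rarest member in total RNA, with 5.27 and 4.28 CPM in KO and 13.1 and 12.3 CPM in WT (log2 change -1.41 ± 0.22, adjusted p = 0.0015). Polysomes held 27.1 and 17.8 CPM in KO, against 89.0 and 73.0 CPM in WT, and the log2 change of -1.85 ± 0.20 (adjusted p = 0.000138) was the largest of the members there. Day 2 had 18.5 and 17.6 CPM in KO and 32.6 and 31.1 CPM in WT (log2 change -0.82 ± 0.06, adjusted p = 4.92e-14). The fall was thus seen in all 3 sets. The neighbouring Tcl1b1 to Tcl1b5 copies had at most 6 counts in any library and were not tested.

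Levels between genes were compared per kilobase of exon. In KO total RNA the order was Dppa5a (1142 ± 94.1 CPM per kb, SD, n = 2), Utf1 (138), Dppa4 (64.4 ± 4.17), Sall4 (63.3 ± 1.74), Lin28a (48.3), Dppa2 (43.1), Trim71 (26.3 ± 1.34), Gdf3 (26.2 ± 1.32), Dppa3 (20.3) and Tcl1 (2.59). In WT total RNA it was Dppa5a (2738 ± 421), Lin28a (138), Utf1 (123), Dppa4 (91.2 ± 3.79), Sall4 (89.9 ± 2.39), Dppa2 (74.1), Gdf3 (53.3 ± 2.68), Trim71 (50.4), Dppa3 (27.4) and Tcl1 (6.89). Lin28a was the fifth in KO and the second in WT. Dppa4 and Sall4 did not differ beyond their spread in either arm, nor did Trim71 and Gdf3 in KO.

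The KO effect in polysomes was set against that in total RNA by the difference of the polysome and total log2 changes. The 2 fractions also differ in kind of library. Total libraries had 92.0% to 93.4% of counts in protein-coding genes and 29568 to 32072 genes with a read. Polysome libraries had 98.3% to 98.9% and 19784 to 21086. Fraction and kind of library cannot be told apart, and the part of the latter in the differences was not tested. None of the 10 members was called by edgeR (0.0109% of genes, 2 in all), and none by DESeq2. At an unadjusted p under 0.05 there was 1, Dppa3, as against 2304 of the 18303 genes. Dppa3 had the largest difference, -1.10 ± 0.23 (adjusted p = 0.207). Leaving out WT polysome replicate 2 gave -1.09 (adjusted p = 0.0381), and leaving out replicate 1 gave -1.07 (adjusted p = 0.00214). Without replicate 1, 24.3% of 20409 genes were called, 1848 higher and 3111 lower, and 5 members were among them, with Gdf3 lower as well (-0.87) and Trim71 (1.35), Dppa2 (0.50) and Sall4 (0.46) higher. Single WT polysome libraries therefore decided these calls. The other values over all libraries were -0.62 ± 0.28 for Gdf3, -0.44 ± 0.30 for Tcl1, 0.58 ± 0.42 for Trim71, and between -0.13 and 0.25 for the remaining 6.

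After actinomycin D the members parted widely. Since each library is scaled to its own bulk, a slope of 0 means loss at the rate of a typical mRNA of that arm. A negative slope means faster loss and a positive slope slower loss. A slope difference thus compares KO and WT each against its own bulk, and not absolute rates. Scaled to mitochondrially encoded mRNAs, the median slope of all genes was 0.073 in KO and 0.011 in WT. The 7 tested of these mRNAs did not move together and are not a fixed reference. Against the bulk 6 had a negative called slope in KO, and in WT 4 had a negative and 1 a positive one. In KO mt-Nd1 had -0.43 and mt-Co1 0.09. In KO 5 members had a positive called slope and 3 a negative one (31.6% and 36.3% of genes), and in WT 5 and 4 (35% and 38.8%). Slopes were called different between KO and WT for 3 members: Utf1 and Gdf3 higher in KO (10.2% of genes) and Lin28a lower (8.78%). At 4 h and again at 8 h 1 member, Utf1, was called higher in KO than in WT and 8 lower (32.9% and 32.7% of genes at 4 h, 32.6% and 37% at 8 h). The change over the first 4 h was called higher in KO for 2 members and lower for 2 (13.5% and 13.1% of genes), and that over the next 4 h higher for 3 and lower for 3 (11.1% and 11.3%).

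**Figure D3:**
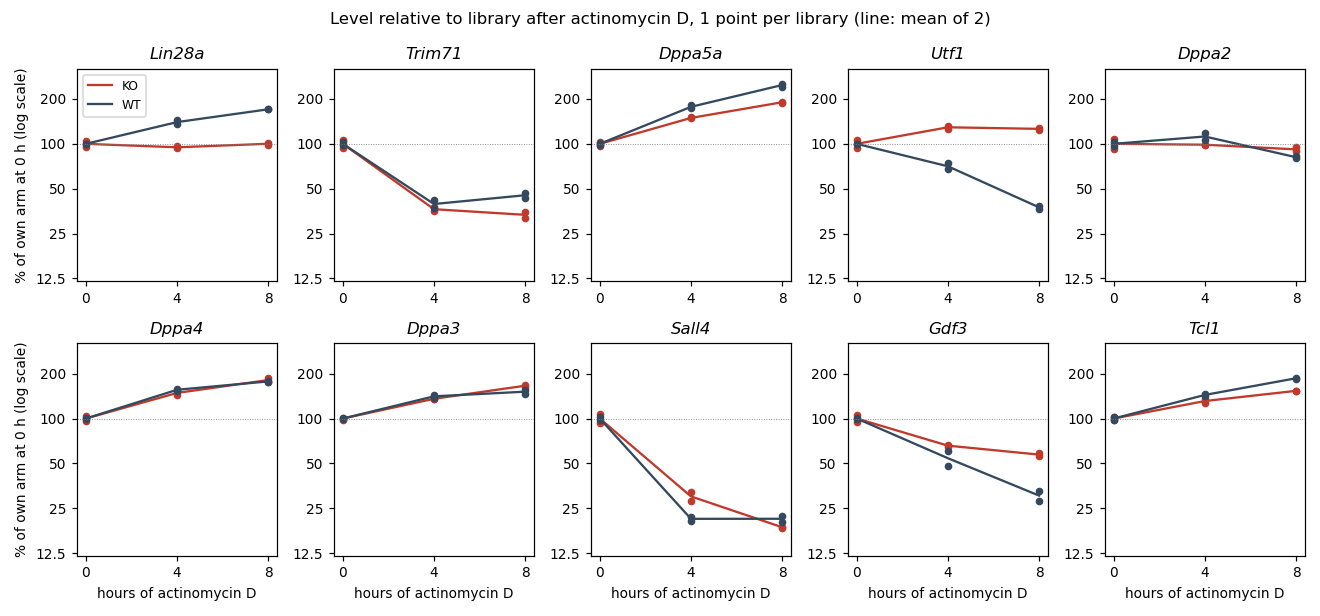
Level of each gene after 0, 4 and 8 h of actinomycin D as a percentage of the mean of its own arm at 0 h (log axis; KO red, WT dark blue; 1 point per library, lines through means of 2). Sall4, Trim71 and Gdf3 drop in both arms, Utf1 drops in WT and not in KO, and Lin28a climbs in WT while KO stays level.

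Utf1 showed the largest difference of the members. At 4 h it was at 621 and 657 CPM in KO, against 320.3 and 292 CPM in WT, and at 8 h at 636 and 610.4 CPM in KO, against 166 and 158 CPM in WT. KO libraries thus stayed above their 0 h level while each WT library was lower at every later time. By 8 h the fitted level was 126% of 0 h in KO and 37.5% in WT. The slopes were 0.042 ± 0.015 log2 per h in KO and -0.18 ± 0.02 in WT, a difference of 0.22 ± 0.02 (adjusted p = 1.67e-05), and 98.8% of genes had a difference as low or lower. Its KO minus WT log2 change was 1.06 ± 0.05 at 4 h (adjusted p = 7.49e-16) and 1.94 ± 0.05, or 384% of WT, at 8 h (adjusted p = 2.92e-21). Its KO minus WT change was 0.87 ± 0.07 over the first 4 h and 0.88 ± 0.07 over the next, so both intervals gave nearly the same value.

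Gdf3 was the other member lost more slowly in KO, relative to the bulk of each arm. At 4 h it was at 36.2 and 34.9 CPM in KO and 56.2 and 44.3 CPM in WT, and at 8 h at 31.6 and 30.3 CPM in KO and 30.4 and 26.0 CPM in WT. The arms, apart at 0 h, had met by 8 h (log2 change 0.12 ± 0.10, adjusted p = 0.29). At 8 h 57.3% of the 0 h level was left in KO and 30.7% in WT. The slopes were -0.10 ± 0.01 in KO and -0.21 ± 0.02 in WT (difference 0.11 ± 0.02, adjusted p = 0.00244). The interval from 0 to 4 h alone gave no call (0.28 ± 0.13, adjusted p = 0.119), and that from 4 to 8 h did (0.62 ± 0.14, adjusted p = 0.00382). Of 14 NODAL pathway genes tested, 3 had a higher slope in KO and 0 a lower one: Lefty2 (0.11 ± 0.01), Smad4 (0.11 ± 0.02) and Tdgf1 (0.11 ± 0.02).

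Lin28a went the other way. It was at 141 and 145 CPM in KO and 560.02 and 526 CPM in WT at 4 h, and at 153 and 149 CPM in KO and 664 and 660.3 CPM in WT at 8 h. The 8 h level was 100.1% of 0 h in KO and 170.5% in WT. The KO mRNA was thus lost at the typical rate (slope 0.0002 ± 0.009) and the WT mRNA more slowly (0.096 ± 0.009), a difference of -0.096 ± 0.013 (adjusted p = 0.000171). Scaled to mitochondrially encoded mRNAs the difference was -0.0375 and was not called (adjusted p = 0.645). The KO minus WT log2 change was -1.93 ± 0.04 at 4 h and -2.13 ± 0.04 at 8 h.

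**Figure D4:**
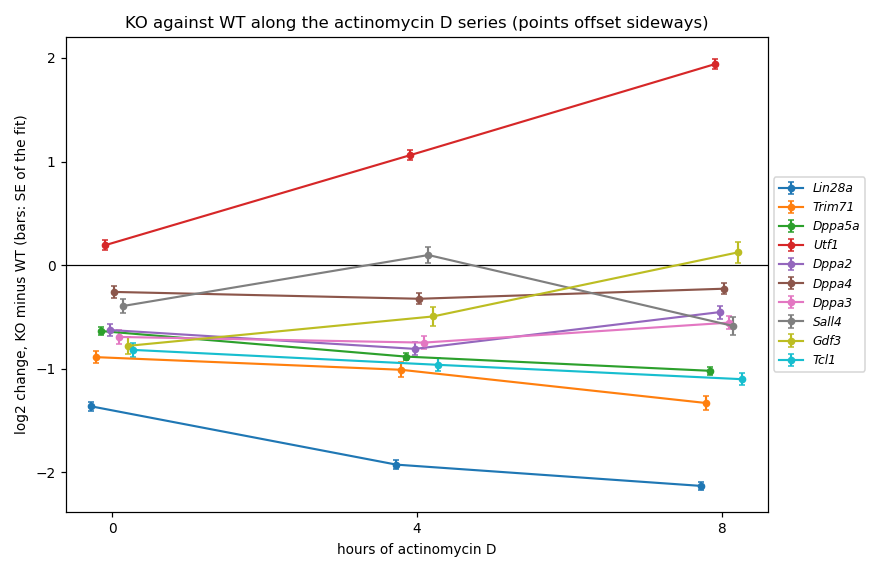
KO minus WT log2 change of the 10 genes (colours) at 0, 4 and 8 h of actinomycin D, with the SE of the fit. Utf1 climbs to 1.94 at 8 h, Gdf3 climbs to 0.12, Lin28a descends to -2.13, and Sall4 reaches 0.10 at 4 h before returning to -0.59.

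Sall4 and Trim71 had the least left of the members after the first 4 h, in KO and in WT. Sall4 was at 79.8 and 91.8 CPM in KO and 82.6 and 76.8 CPM in WT at 4 h, and at 52.9 and 53.6 CPM in KO and 83.9 and 75.7 CPM in WT at 8 h. At 8 h 18.6% of the 0 h level was left in KO and 21.3% in WT. The change over the whole 8 h was not called different (-0.19 ± 0.11, adjusted p = 0.174), but both of its parts were: from 0 to 4 h the log2 change was higher in KO than in WT by 0.49 ± 0.11 (adjusted p = 0.00366), and from 4 to 8 h it was lower (-0.69 ± 0.12, adjusted p = 0.000757). From 4 to 8 h the log2 change was -0.68 ± 0.08 in KO and 0.01 ± 0.08 in WT. The linear slopes, -0.30 ± 0.06 in KO and -0.28 ± 0.06 in WT, did not show this (difference -0.02 ± 0.08, adjusted p = 0.888).

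Trim71 was at 26.9 and 28.7 CPM in KO and 59.1 and 52.5 CPM in WT at 4 h, and at 24.3 and 26.7 CPM in KO and 66.6 and 61.2 CPM in WT at 8 h. The steep part of the course was the first 4 h, after which 36.3% was left in KO and 39.5% in WT. From 0 to 8 h it was lower in KO than in WT by a log2 value of -0.44 ± 0.09 (adjusted p = 0.000145), with 33.4% left in KO and 45.3% in WT. The slope difference was not called (-0.06 ± 0.07, adjusted p = 0.632).

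Of the remaining 5 members, Dppa5a, Tcl1, Dppa4 and Dppa3 were lost more slowly than the typical mRNA in both arms. Dppa5a stood at 190% of its 0 h level in KO and 248% in WT at 8 h, and its slopes were 0.12 ± 0.01 in KO and 0.16 ± 0.01 in WT (difference -0.048 ± 0.016, adjusted p = 0.0537). Tcl1 stood at 153% in KO and 187% in WT (difference -0.035 ± 0.013, adjusted p = 0.0827). Both values missed the threshold, yet the change from 0 to 8 h alone was called lower in KO for each (-0.38 ± 0.05 for Dppa5a, adjusted p = 1.04e-07, and -0.28 ± 0.09 for Tcl1, adjusted p = 0.0077). Scaled to mitochondrially encoded mRNAs the slope differences turned to 0.0074 for Dppa5a and 0.0211 for Tcl1, neither called. Over that span 2 members were called higher in KO and 4 lower (18.2% and 24.3% of genes). Dppa4 stood at 181% in KO and 178% in WT, and Dppa3 at 166% in KO and 151% in WT. Dppa2 stood nearer to the typical mRNA, at 91.8% in KO and 81.5% in WT at 8 h. The 95% intervals of the slope difference were -0.034 to 0.042 for Dppa4, -0.017 to 0.051 for Dppa3 and -0.024 to 0.067 for Dppa2, in log2 per h.

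Set beside the sites shown above, the 4 members with a let-7 match were Sall4, Trim71 and Gdf3, with a negative called slope in both arms, and Lin28a, without one. The slope of Gdf3 in KO lay at percentile 28.3 of all genes and that of Trim71 in WT at 25.3, so these 2 were not extreme. Of the 6 members without a let-7 match, Utf1 had a negative called slope in WT. No test of this split was made. Of 21 other genes of the let-7 and LIN28 axis, 6 were called lower and 1 higher in total RNA, 6 lower and 2 higher in polysomes, and 18 lower and 1 higher at 0 h. Of all genes, 12.2%, 21.1% and 32.9% were called lower in these 3 sets and 16%, 15.9% and 29.8% higher. The median of that list was -0.35 in total RNA and -0.30 at 0 h, against 0.01 and -0.01 over all genes. Lin28b, the paralog of Lin28a, had -1.14 ± 0.15 in total RNA, and the let-7 target Mycn had -1.53 ± 0.20. The genes called higher, named after their values were seen, were Hmga2 in total RNA (0.59), Hmga2 and Arid3a in polysomes and Arid3a at 0 h. Slopes of this list were higher in KO for 4 genes and lower for 3 (10.2% and 8.78% of all genes). Of 6 mRNAs known as TRIM71 targets, 3 were called lower and 1 higher at 0 h, 1 lower and 1 higher in total RNA, and 3 lower and 1 higher in polysomes. The cell cycle inhibitor Cdkn1a was called higher in KO at 0 h (0.48 ± 0.05), in total RNA (0.44 ± 0.14) and in polysomes (0.57 ± 0.13), and the transcription factor Egr1 was called lower at 0 h (-1.26 ± 0.06), in total RNA (-1.57 ± 0.22) and in polysomes (-0.64 ± 0.20). The other targets called lower were Ago2 (-0.70) and Mbnl1 (-0.28) at 0 h, and Rbl2 (-1.12) and Rbl1 (-0.54) in polysomes.

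Whether the KO effect on a member changed with time was asked in 1 fit of the total RNA and 0 h libraries. They were called different for 1 member, Tcl1 (-0.56 ± 0.14, adjusted p = 0.0148; 2.29% of 19071 genes were called lower and 2.54% higher). That call was lost without 1 KO library of day 3 or of day 2, without 1 WT library of day 2, and with DESeq2 (adjusted p = 0.0566 to 0.156). The days also differ in the source label of WT and in the kind of library. Reads aligned to several places were tallied in the total libraries alone (20.1% to 25%). Protein-coding genes had 92.0% to 93.4% of counts in the total libraries and 98.7% to 98.9% at 0 h. Genes with a read numbered 29568 to 32072 and 20736 to 20905. The part of these in the difference was not tested.

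Other ESC-enriched genes were lower as well. Of 40 such genes outside the 10, 38 were tested in total RNA, and 27 were called lower (12.2% of all genes) and 0 higher, with a median log2 change of -0.95. In polysomes 30 of 38 were lower (21.1% of all genes) and 0 higher (median -1.03), and at 0 h 31 of 37 were lower (32.9%) and 3 higher (median -0.51). Fgf4, whose product signals from inner cell mass to trophectoderm, had -1.84 ± 0.17 in total RNA, the 5-methylcytosine oxidase Tet1 had -1.51 ± 0.16, and at 0 h the orphan receptor Nr0b1 had -1.39 ± 0.05. Slopes after actinomycin D were higher in KO for 10 of 37 (10.2% of all genes) and lower for 2 (8.78%), Pou5f1 and Tet1. Eras, a RAS family gene of ESCs, had a slope difference of 0.19 ± 0.01 (adjusted p = 1.45e-06), against 0.22 for Utf1.

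The genes most like each member were sought among 9170 genes by Euclidean distance over 5 log2 differences of group means (total, polysome, 0, 4 and 8 h). Closest were Trim25 to Dppa4 (distance 0.0531), Zfp740 to Lin28a (0.0855), Mrps31 to Dppa2 (0.118), Spred2 to Sall4 (0.138) and Zbtb8a to Dppa5a (0.140). Zfp740 had -1.47 in total RNA and -2.06 at 8 h, where Lin28a had -1.52 and -2.13. The nearest to Utf1 was Orc1, a subunit of the origin recognition complex, at a distance of 0.252, with 0.24 in total RNA, 0.34 at 0 h and 1.99 at 8 h. No member was the nearest gene of another.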

How the data were processed

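The files hold raw counts of reads per Ensembl gene, 1 library each, which the authors made with STAR 2.3.0e, mm9 and HTSeq per the submitters' processing notes, with no HTSeq version given in the sources used here. Symbols and positions came from GENCODE M21 (GRCm38) by gene ID, so no mm9 coordinate is used, and 32919 of 37991 IDs matched. Unassigned-read tallies were left out of library sizes. Tests were run with edgeR 4.0.16 (quasi-likelihood, robust, TMM, filterByExpr with a minimum count of 10, R 4.3.3), adjusted by Benjamini-Hochberg over all genes tested, in separate fits for day 3 (8 libraries), actinomycin D (12) and day 3 with day 2 (8). The ± of a log2 change is the SE, its size divided by the square root of F. Tests were checked on simulated data. DESeq2 1.42.0, other scalings and filters, a replicate block and leaving out each library were alternatives. The labels call the 2 samples of a group biological replicates. The p-values rest on the spread within groups, estimated jointly over all libraries of a fit. A p-value or SE for total RNA of day 3 therefore also reflects the scatter of the polysome libraries. The members were named by rule. Beyond them, list genes with small p, some neighbours within 150 kb in the genome and the nearest genes in pattern were named. The members and lists were chosen with earlier results of these data known. The list of AKT signalling genes is not reported here as a whole.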

Additional observations from a re-analysis of the deposited data

Results flagged for a closer look

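Some effects differed between arms or days by a test of the difference itself. The slope after actinomycin D differed between KO and WT for Utf1 (0.2184 log2 per h, higher in 2 of 2 KO libraries at 4 h and at 8 h), Gdf3 (0.1137) and Lin28a (-0.096). The KO change differed between day 3 and day 2 for Tcl1 (-0.5636), but that call was lost with DESeq2 and without any of 3 single libraries, and the WT libraries of day 3 carry another source label than those of day 2.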

How the results depend on the processing

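Of 1430 member values under alternatives, 1271 kept their direction and their side of the threshold. The slope difference of Utf1 was called under every alternative tried, that of Gdf3 under all but the 0 to 4 h change divided by 4, and that of Lin28a under all but scaling to mitochondrially encoded mRNAs. The cause of the changes below was not tested. In total RNA 5 members were called with library totals alone. The number of members called also changed without 1 library each, as did the share of all genes called. Over all genes 33.3% were called in total RNA with library totals alone, against 28.2% in the fit reported. At 0 h 2 members were called when scaled to mitochondrially encoded mRNAs (41% of genes), with Dppa4 at 0.2237 and Sall4 at 0.0835. In polysomes, leaving out 1 library gave -0.0078 to 0.2955 for Utf1 and -0.8506 to 0.3831 for Trim71. For the polysome association, 0 to 5 members were called without 1 library each. Utf1 became 0.069 with RLE scaling, 0.1704 with no filter and 0.0787 with DESeq2 (-0.1472 to 0.2116 without 1 library), and Lin28a 0.0506, 0.1542 and 0.0601 (-0.2729 to 0.3257). Dppa5a became 0.0514 with no filter (-0.2708 to 0.181).

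The slope difference was called for 5 members with a filter of 1 CPM (24% of genes). As the 0 to 8 h change divided by 8 it was called for 6 (42.4% of genes, against 19% in the fit reported). Scaled to mitochondrially encoded mRNAs it was 0.0074 for Dppa5a, 0.0211 for Tcl1, 0.0357 for Sall4 and 0.0037 for Trim71. As the 0 to 4 h change divided by 4 it was -0.0456 for Dppa2, -0.0137 for Dppa3, -0.0165 for Dppa4 and 0.1229 for Sall4. Without 1 library it was -0.0074 to 0.0137 for Dppa4 and -0.0539 to 0.0169 for Sall4. The KO slope of Lin28a was -0.0245 with library totals, -0.0012 with no filter, -0.0010 with a filter of 1 CPM and -0.0195 over 0 to 4 h (-0.0045 to 0.0097 without 1 library), and that of Dppa2 was 0.0615 when scaled to mitochondrially encoded mRNAs. The WT slope of Dppa2 over 0 to 4 h was 0.0411.

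For day 3 against day 2, 2 members were called with library totals, 4 with no filter and 0 to 5 without 1 library each. Over all genes 6.92% were called with library totals and 4.52% with no filter, against 4.83% in the fit reported. Utf1 became -0.0404 with RLE scaling, -0.0777 with no filter and -0.0438 with DESeq2. Trim71 became 0.0558 with library totals and 0.0037 with a filter of 1 CPM. Without 1 library the values were -0.0981 to 0.0818 for Utf1, -0.1924 to 0.0079 for Sall4 and -0.1226 to 0.0646 for Trim71. With the replicate number as a block 2 members were called there (Dppa5a at -0.5838 as well), where 5.57% of genes were. The block changed no other count of members. Same-numbered libraries deviated together with r = 0.131 in total RNA, 0.261 in polysomes, 0.028 at 0 h, -0.021 at 4 h and 0.025 at 8 h, so they were taken to share a number only.

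Scaling and the choice of libraries fitted also set how many genes were called on each side. In total RNA 5179 were higher and 908 lower with library totals, against 2931 and 2225 in the fit reported. When only the 4 total libraries were fitted, with TMM scaling kept, 5469 were higher and 5467 lower. That was 57.8% of 18924 genes, against 28.2% of 18303 in the fit reported. At 0 h 6300 were higher and 184 lower when scaled to mitochondrially encoded mRNAs, and 3537 and 6898 with RLE scaling, against 4718 and 5203. The slope difference gave 1846 higher and 9 lower when scaled to mitochondrially encoded mRNAs, and 2349 and 648 with library totals, against 1614 and 1389. Tcl1 had the fewest counts of the members, 126 in its lowest library, yet the SE in total RNA was 0.22 for Tcl1 and 0.30 for the far deeper Trim71. Both SEs come from the fit shared with the polysome libraries, where Trim71 was at 127 and 53.7 CPM in WT.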

Other observations

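Neighbours of the members within 150 kb did not all follow them. Near Utf1, which did not fall, Adam8 (48.8 kb away) had log2 changes of 2.17 at 0 h, 2.40 in total RNA and 2.37 in polysomes. Msx3 (105.3 kb) had 2.43, 2.33 and 3.09 in the same order. In total RNA 6430531B16Rik (35.0 kb, 1.71) and Caly (138.8 kb, 1.68) were also called higher. Kndc1 (49.1 kb, 0.08), Zfp511 (92.6 kb, -0.25) and Tubgcp2 (92.9 kb, 0.08) were not called there, and Kndc1 was called lower in polysomes (-1.23). Near Sall4, Atp9a (25.5 kb away) had 1.49, 1.26 and 1.17, where Sall4 was called lower in total RNA and at 0 h.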
